A study of Mus musculus with 4 samples.

Results

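The oligoadenylate synthetase (OAS) family of the mouse was followed through the CD45-positive infiltrate of B16-F10 melanomas, through 6 members taken from the gene table by symbol: Oas1a, Oas1g, Oas2, Oas3, Oasl1 and Oasl2. These were 6 of the 27998 genes of the table, and all had counts. B16-F10 is a mouse melanoma line that grows in C57BL/6 mice. The series held 2 libraries of cells from Adar1-null tumours, called S1 and S2 here, and 2 of cells from control tumours, called S3 and S4. The genotype is that of the implanted melanoma cells, and the edit itself, the number of clones behind it and the host's age are not given in the labels. In both groups melanoma cells were implanted with matrigel, tumours were taken on day 14 and digested for 10 min at 37 °C with collagenase P and DNase I, and leukocytes were taken from an Optiprep gradient and then selected with magnetic beads for CD45. Messenger RNA was counted in single cells by the 10x 3′ v2 droplet method, in which a unique molecular identifier (UMI) marks each captured molecule. The design text speaks of 2 tumours per group but not of separate animals, and p-values therefore cover the spread between these libraries alone, which may be technical.

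OAS enzymes are cytosolic sensors that are induced by interferon. Double-stranded RNA switches on the catalytic members, which then join ATP into short 2-5A chains, the signal through which these enzymes restrict viral replication. ADAR1, encoded by Adar, converts adenosine to inosine in double-stranded RNA, so that cellular transcripts are not read as foreign by such sensors. In the mouse, Oas1a is a catalytic OAS1 enzyme and Oas1g one of its close paralogs. Oas2 and Oas3 encode larger enzymes built from repeated OAS units, and in human cells OAS3 is known for sensing long double-stranded RNA. Oasl1 and Oasl2 encode OAS-like proteins with a ubiquitin-like tail. Mouse Oasl1 makes no 2-5A and is known as a brake on the translation of Irf7, whereas mouse Oasl2 has kept synthetase activity.

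All 6 members lie on chromosome 5 of the mouse build GRCm38, in 2 neighbourhoods. Oasl2 (chr5:114896936-114912234, plus strand) is followed directly by Oasl1 (chr5:114923240-114937915, plus strand). Oas2 (chr5:120730333-120749853), Oas3 (chr5:120753098-120777661), Oas1g (chr5:120876142-120887613) and Oas1a (chr5:120896256-120907521) form a second group, all on the minus strand. Promoters of 5 members were available from RefSeq (GRCm38.p6), each reaching 250 bases upstream of the annotated start and 50 bases downstream. They were searched on both strands for the interferon-stimulated response element (ISRE, searched as GAAA, any 2 bases, GAAA), the motif read by the interferon-activated factor ISGF3, and for the gamma-activated site (GAS, searched as TTCNNNGAA). The 3 promoters with an ISRE match are printed to show the match and the bases around it. They are Oas1a (chr5:120907476-120907775, minus strand), Oas1g (chr5:120887564-120887863, minus strand) and Oas3 (chr5:120777610-120777909, minus strand), and capitals mark the bases covered by an ISRE match.
Oas1a: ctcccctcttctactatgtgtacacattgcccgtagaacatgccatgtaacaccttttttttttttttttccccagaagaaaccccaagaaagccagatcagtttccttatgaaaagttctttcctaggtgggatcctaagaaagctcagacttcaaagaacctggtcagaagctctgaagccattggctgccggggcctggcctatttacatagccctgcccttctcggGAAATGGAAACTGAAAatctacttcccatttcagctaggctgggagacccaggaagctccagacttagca
Oas1g: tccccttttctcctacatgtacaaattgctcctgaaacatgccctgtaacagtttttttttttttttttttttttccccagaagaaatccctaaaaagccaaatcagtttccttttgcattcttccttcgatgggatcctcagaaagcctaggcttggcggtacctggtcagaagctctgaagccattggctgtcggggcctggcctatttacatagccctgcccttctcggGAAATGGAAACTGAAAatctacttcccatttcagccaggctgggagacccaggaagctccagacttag
Oas3: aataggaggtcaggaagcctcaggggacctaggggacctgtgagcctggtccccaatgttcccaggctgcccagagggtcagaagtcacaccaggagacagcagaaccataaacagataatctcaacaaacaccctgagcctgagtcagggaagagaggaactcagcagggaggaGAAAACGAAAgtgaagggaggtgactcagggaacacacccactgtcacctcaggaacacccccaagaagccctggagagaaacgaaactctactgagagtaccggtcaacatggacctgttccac
The matches in Oas1a began 20 and 14 bases before the start and overlapped each other. Those in Oas1g began 18 and 12 bases before it, with the same letters. Oas3 had 1 match, 75 bases before its start. Oas1a also had a GAS match, 98 bases before its start. Of all 32851 mouse promoters in the same RefSeq table, 3.44% held this ISRE form and 8.30% the GAS form. The windows of Oasl1 and Oasl2 held neither pattern. Oas1a and Oas1g shared an identical run of 73 bases in this window, and no other pair of these 5 promoters shared more than 9.

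This likeness reaches the counted ends of the transcripts, which limits how far Oas1a and Oas1g can be told apart. Of 411 windows of 90 bases in the last 500 bases of the Oas1a transcripts, 174 (42.3%) also occurred in Oas1g. Of the 1044 such windows of Oas1g, 280 (26.8%) occurred in Oas1a. Reads in these windows cannot be told apart by sequence, so the split of counts between both genes is uncertain. The other 4 members had no shared window. Exons of Oasl1 overlap the antisense gene Gm13822, which had 147 UMIs in kept cells against 2671 of Oasl1, and whether counting used strand is not given in the sources used here.

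After filtering, 8559 of 8838 barcodes were kept, with 1938 and 1929 cells in S1 and S2 (Adar1-null) and 1943 and 2749 in S3 and S4 (control). Median UMIs per cell were 7916.5 and 7588 in the Adar1-null libraries, against 8813 and 7854 in the control libraries, and totals ran between 23280573 and 32670356 UMIs. Of the barcode sequences, 38 occurred in more than 1 library. S4 stood apart: its erythroid cell markers summed to 900.02 CPM (UMIs scaled to a common total), against at most 2.02 CPM in the other 3 libraries. Its macrophage markers summed to 22520 CPM, against 7789 and 6443 CPM in S1 and S2 and 10319 CPM in S3. Adar itself was at 9.40 and 12.8 CPM in melanoma-like cells of S1 and S2, against 11.4 and 12.9 CPM in those of S3 and S4. The method reads the 3′ end and the edited position is not given in the labels, so this level checks nothing about the genotype.

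Cells were grouped by marker genes, and clusters were built without the members and other interferon genes, which therefore did not define the groups. Of the kept cells, 4824 were monocyte- or macrophage-like, 1326 T cell-like (1090 CD8 T cell-like and 236 regulatory T cell-like), 1235 melanoma-like and 279 conventional dendritic cell 2-like (cDC2-like). Smaller classes were natural killer cell-like (158), conventional dendritic cell 1-like (cDC1-like, 144), migratory dendritic cell-like (127), fibroblast-like (79) and plasmacytoid dendritic cell-like (39), and clusters 11 and 17 stayed unnamed. Melanoma-like cells remained in every library although CD45 had been selected, so the suspension was not purely leukocytes.

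The family was carried mainly by the myeloid cells. Summed over the 6 members, monocyte- or macrophage-like cells had 252.2 and 473.1 CPM in S1 and S2 (Adar1-null), against 261.6 and 166.9 CPM in S3 and S4 (control). The sum in cDC2-like cells was 255.6 and 457.8 CPM in the Adar1-null libraries and 212.6 and 178.9 CPM in the control libraries. These 2 classes covered the same range, with S2 highest and S4 lowest in both. Next in order were fibroblast-like cells at 180.9 and 351.6 CPM, against 187.6 and 52.8 CPM, and migratory dendritic cell-like cells at 115.0 and 266.8 CPM, against 199.5 and 98.8 CPM. Plasmacytoid dendritic cell-like cells had 216.2 and 200.2 CPM in S1 and S2, against 132.6 and 15.7 CPM in S3 and S4, from few cells. Across libraries these 3 classes overlapped each other and both classes above them, while within each library all 3 summed to less than both.

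The remaining named classes also summed to less than monocyte- or macrophage-like cells in each library. Regulatory T cell-like cells summed to 120.2 and 209.3 CPM in S1 and S2, against 99.0 and 74.7 CPM in S3 and S4. In cDC1-like cells the sum was 51.8 and 35.9 CPM in the Adar1-null libraries and 23.6 and 36.2 CPM in the control libraries, and in natural killer cell-like cells it was 20.5 and 50.6 CPM, against 40.3 and 16.1 CPM. CD8 T cell-like cells had 17.6 and 23.9 CPM in S1 and S2, against 8.24 and 6.70 CPM in S3 and S4. Melanoma-like cells, the cells that carry the Adar1 edit, had 6.23 and 16.0 CPM, against 13.9 and 4.42 CPM. Regulatory T cell-like cells lay above CD8 T cell-like and melanoma-like cells in every library, while CD8 T cell-like and melanoma-like cells overlapped.

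**Figure D1:**
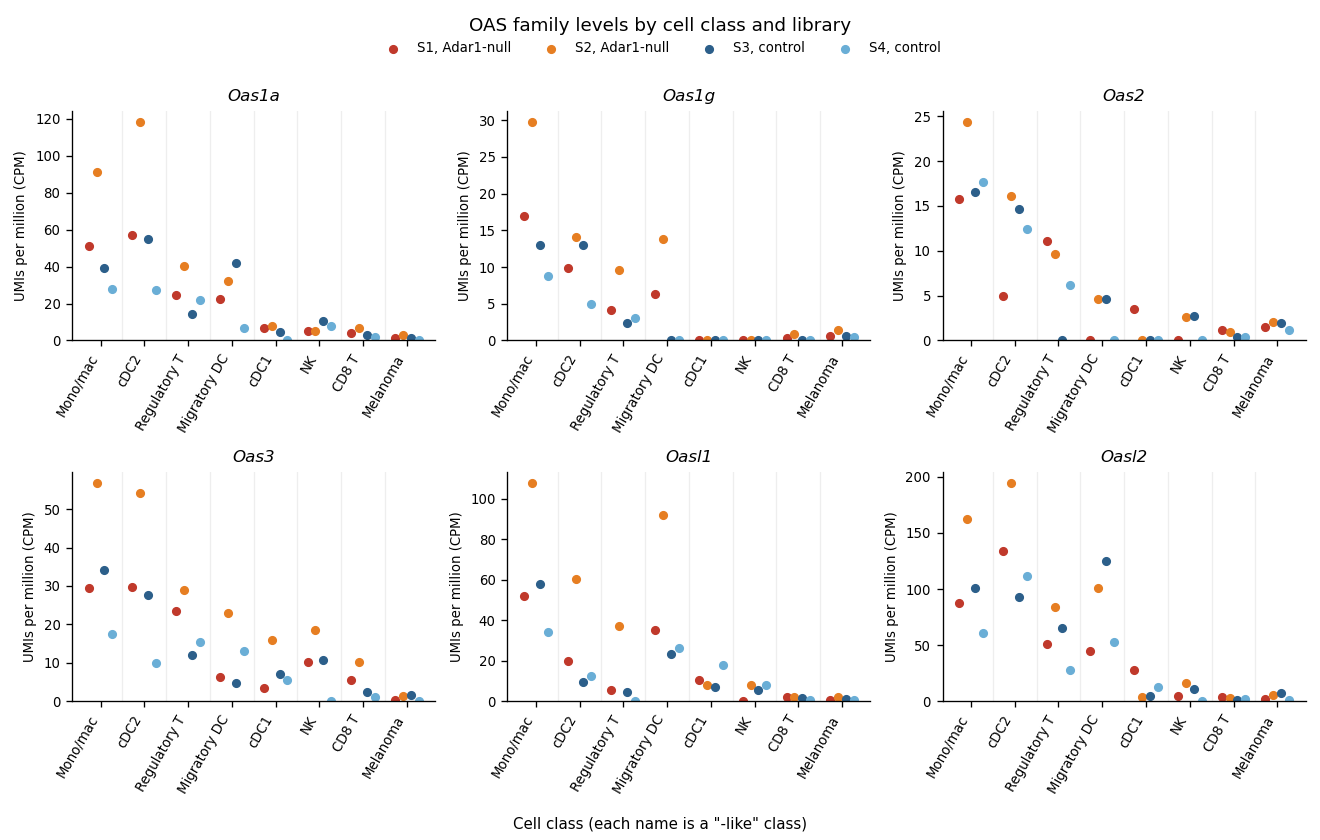
Level (CPM) of each OAS member in 8 cell classes, with a point per library (S1 and S2 Adar1-null, S3 and S4 control). Monocyte- or macrophage-like cells lie above CD8 T cell-like and melanoma-like cells for each of the 6 members in each library, and melanoma-like cells lie between 0.174 and 7.31 CPM for every member.

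Each class was tested against monocyte- or macrophage-like cells with the library as a block, by the quasi-likelihood test of edgeR (Benjamini-Hochberg) over all genes. In T cell-like cells all 6 members were lower, where 35% of the 11967 genes tested were lower too. The log2 differences ran between -2.44 ± 0.21 (SE) for Oas3 and -4.43 ± 0.20 for Oasl1, with adjusted p between 2.12e-15 and 6.96e-07 by the same test. In melanoma-like cells all 6 were lower as well, against 40.2% of genes, with log2 differences between -3.98 ± 0.22 for Oas2 and -6.30 ± 0.19 for Oasl1. Leaving out any library, S4 included, left 6 of 6 members lower in both contrasts.

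In cDC2-like cells 2 of 6 members were called lower, Oasl1 and Oas1g. Oasl1, the OAS-like brake on Irf7, was at 19.9 and 60.2 CPM in S1 and S2, against 9.74 and 12.4 CPM in S3 and S4. The monocyte- or macrophage-like cells of S1 to S4 had 51.9, 108.1, 58.1 and 34.4 CPM. It was lower in every library, with a log2 difference of -1.55 ± 0.23 (adjusted p = 8.14e-06 by the quasi-likelihood test of edgeR (Benjamini-Hochberg)). Oas1g was lower at -0.80 ± 0.30 (adjusted p = 0.0452 by the same test). That call was lost without S1, S2 or S4 and without the library block, which also removed that of Oasl1. Oas1a (0.15 ± 0.16), Oasl2 (0.22 ± 0.28), Oas3 (-0.36 ± 0.26) and Oas2 (-0.73 ± 0.34) did not pass. Genes called lower in this contrast made up 18.7% of those tested, against 2 of 6 members.

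A fit of 7 classes with at least 20 cells in every library, added after seeing the data, placed the rarer classes too. Only Oas1a, Oas3, Oasl1 and Oasl2 passed its filter on low counts. All 4 were lower in CD8 T cell-like cells, with log2 differences of -3.89, -3.00, -5.37 and -5.40, against 37.7% of genes lower. Regulatory T cell-like cells lay nearer to monocyte- or macrophage-like cells, at -1.27, -0.98, -2.55 and -1.01, and again all 4 passed, against 26.4% of genes. In cDC1-like cells the 4 were lower at -3.57, -2.13, -2.28 and -3.00 (23.2% of genes lower). Migratory dendritic cell-like cells were lower for Oas1a (-0.89) and Oas3 (-1.57), while Oasl1 (-0.45) and Oasl2 (-0.25) did not pass (23.8% of genes lower). Melanoma-like cells had all 4 lower (42.1% of genes), and cDC2-like cells Oasl1 only (19.1%).

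The mix of members varied between classes, which the makeup of the summed member UMIs shows without regard to depth. Oasl2 gave 36.0% of member UMIs in monocyte- or macrophage-like cells and 47.4% in cDC2-like cells. In fibroblast-like cells it gave 57.1% (48.6% to 76.2% by library). In plasmacytoid dendritic cell-like cells it gave 75.8%, from 25 of only 33 UMIs (64.3% to 100% by library). Oas3 gave 34.9% in CD8 T cell-like cells, from 58 of 166 UMIs and between 15.8% and 43.2% by library, against 11.8% in monocyte- or macrophage-like cells. Oasl1 gave 21.7% in monocyte- or macrophage-like cells (20.6% to 22.8% by library), 26.3% in migratory dendritic cell-like cells (11.6% to 34.5%) and 9.18% in cDC2-like cells (4.58% to 13.2%). In regulatory T cell-like cells its share of 10.3% came mainly from S2, at 4.598% and 17.7% in S1 and S2, against 4.88% and 0% in S3 and S4. Oas2 made up 16.8% of the few member UMIs of melanoma-like cells, against 7.04% in monocyte- or macrophage-like cells. These shares are descriptions, with no test.

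**Figure D2:**
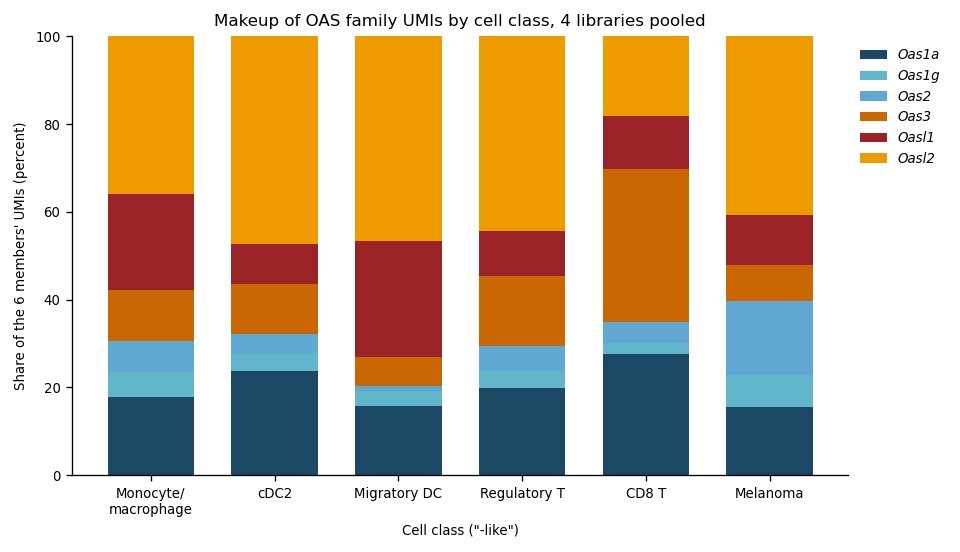
Makeup of the summed UMIs of the 6 OAS members (percent of member UMIs, stacked to the whole) in 6 cell classes, pooled over the 4 libraries. Oas3 takes 34.9% in CD8 T cell-like cells and 11.8% in monocyte- or macrophage-like cells, while Oasl2 takes 47.4% in cDC2-like cells.

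Monocyte- or macrophage-like cells fell into 7 clusters, led by Hp, Chil3 and Vcan (cluster 3, with monocyte genes), Ch25h, Ccl12 and Ccl7 (cluster 6), Cxcl3, Mmp12, Arg1 and Spp1 (cluster 4), Vcam1 and Lpl (cluster 5), Cd209f, Cbr2 and Lyve1 (cluster 1, with genes of resident macrophages), Dnmt3a, Nos2 and Fabp4 (cluster 7) and Saa3 and Pf4 (cluster 9). Oas1a was at 76.9 and 110.4 CPM in cluster 3 of S1 and S2, against 57.2 and 43.9 CPM in that of S3 and S4. In cluster 6 it was at 69.6 and 89.6 CPM, against 44.7 and 34.3 CPM, and in cluster 5 at 35.2 and 66.6 CPM, against 30.2 and 24.9 CPM. Within every library the Vcam1 cluster thus held less Oas1a than the Chil3 cluster.

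Oas2 and Oasl1 followed other clusters. Oas2 was highest in the Lyve1 cluster 1, at 35.2 and 62.6 CPM in S1 and S2, against 44.4 and 30.7 CPM in S3 and S4. That is more than in cluster 3 of the same libraries, where Oas2 was at 19.9 and 31.9 CPM, against 20.9 and 14.1 CPM. It gave 14.6% of the member UMIs of cluster 1. Oasl1 gave 39.9% of the member UMIs of the Nos2 cluster 7, at 64.2 and 117.9 CPM in the Adar1-null libraries and 94.2 and 106.4 CPM in the control libraries. By level it was not highest there in S2, where cluster 4 had 142.3 CPM and cluster 6 had 118.2 CPM. In that cluster Oas1a was at only 19.4 and 46.0 CPM, against 10.5 and 21.6 CPM.

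**Figure D3:**
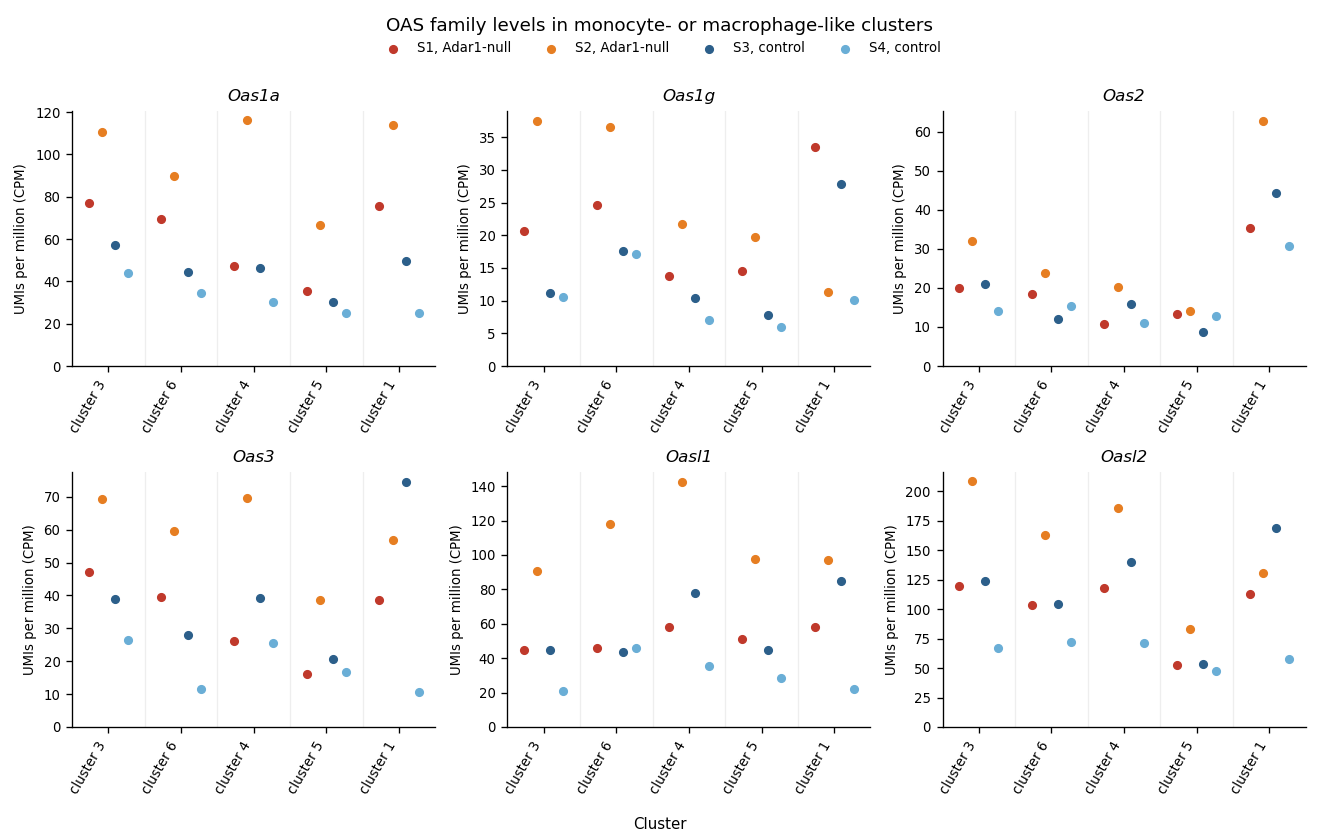
Level (CPM) of each OAS member in 5 monocyte- or macrophage-like clusters, with a point per library (S1 and S2 Adar1-null, S3 and S4 control). S2 holds the upper Oas1a level in each cluster shown.

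Seen cell by cell, most monocyte- or macrophage-like cells had a member transcript. At least 1 member UMI was found in 69.5% and 87.9% of these cells in S1 and S2, against 77.3% and 58.7% in S3 and S4. At least 3 different members were found in 19.0% and 37.7% of cells, against 23.5% and 10.7%, and all 6 members in 1 and 5 cells, against 0 and 3 cells. For both shares S2 lay highest and S4 lowest, so the groups overlapped through S1 and S3. Oasl2 was detected in 42.6% and 62.9% of cells of S1 and S2 (exact 95% intervals 39.4 to 45.8% and 59.7 to 66.1%) and in 51.1% and 32.6% of those of S3 and S4 (48.1 to 54.2% and 30.5 to 34.8%), where intervals cover counting error only. After each cell was thinned to 3961 UMIs the shares were 27.3% and 48.4%, against 30.8% and 18.5%, in the same order.

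Free RNA in the droplets can add member UMIs to cells that make none, so low levels were set beside the macrophage markers found in the same cells. Macrophage markers stood at 605 CPM in CD8 T cell-like cells and 170 CPM in melanoma-like cells. Relative to these marker UMIs, a member carried in by macrophage RNA alone would show the ratio found in monocyte- or macrophage-like cells. In CD8 T cell-like cells, pooled over the 4 libraries, Oas1g (0.56 times that ratio), Oas2 (0.91), Oasl1 (0.74) and Oasl2 (0.67) lay below it, so they were not told from background. By library, however, Oas2 (2.14), Oasl1 (1.30) and Oasl2 (1.42) lay above it in S1, from 3, 6 and 11 UMIs, and Oasl2 (1.07) in S4, from 7. Oas1a lay at 2.08 times that ratio and Oas3 at 3.93 times. By library, Oas3 was at 5.36 and 3.33 times in S1 and S2, against 1.49 and 1.60 times in S3 and S4. The control ratios rest on 6 and 3 UMIs and do not show an excess there.

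In melanoma-like cells the summed members lay at 2.05 and 3.87 times the macrophage ratio in S1 and S2 and at 4.06 and 1.85 times in S3 and S4. These UMIs sat in few cells. The 10% of melanoma-like cells with most member UMIs held 83.1% and 88.1% of them in the Adar1-null libraries and 84.9% and 88.2% in the control libraries. A single cell held as many as 23 member UMIs in S2 and 17 in S3. Macrophage marker UMIs per cell had a median of 4 in melanoma-like cells without a member UMI. The median was 5 in those with 1 or 2 members and 6.5 in those with at least 3. Median total UMIs per cell rose in the same order, at 32357, 35360.5 and 43799. In monocyte- or macrophage-like cells split in this way the marker medians were 79, 96 and 114. Melanoma-like cells with under 3 macrophage marker UMIs had summed members at 3.07 and 20.1 CPM in S1 and S2. In S3 and S4 these were at 6.35 and 6.92 CPM, with 14 such cells in S4. Whether some melanoma-like cells with member UMIs were undetected doublets was not tested.

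Between the groups, no member passed the test in any of 10 populations by edgeR, or by DESeq2 where it gave an adjusted p. In the whole infiltrate, Oas1a was at 21.04 and 37.7 CPM in S1 and S2 (Adar1-null), against 20.9 and 14.7 CPM in S3 and S4 (control), and Oasl2 at 37.1 and 65.6 CPM, against 51.7 and 33.7 CPM. S1 and S3 lay close together, with S2 above and S4 below both. By the quasi-likelihood test of edgeR (Benjamini-Hochberg), the log2 changes were 0.66 ± 0.36 for Oas1a (adjusted p = 0.611) and 0.20 ± 0.38 for Oasl2 (adjusted p = 0.871). Oas2 was the member with a negative value, at -0.23 ± 0.19, from 6.83 and 9.49 CPM in Adar1-null libraries, against 8.83 and 9.43 CPM in control libraries. Oas1a and Oas1g lay above both control libraries in both Adar1-null libraries, as did 34.5% of genes, Oas1a by a narrow margin. No gene at all was called there (0%; 0.459% by DESeq2), and 0 of 6 members reached an unadjusted p under 0.05, against 9.19% of genes. In such a pool, fewer cells of a type and less RNA per cell cannot be told apart.

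Within monocyte- or macrophage-like cells the OAS1 paralogs separated the groups. Oas1a was at 50.9 and 91.5 CPM in S1 and S2, against 39.2 and 27.8 CPM in S3 and S4, and averaged 71.2 ± 28.7 CPM in Adar1-null libraries, against 33.5 ± 8.08 CPM in control libraries (SD, n = 2 each). Oas1g was at 16.9 and 29.8 CPM, against 13.03 and 8.71 CPM, and averaged 23.4 ± 9.09 and 10.9 ± 3.05 CPM. Both Adar1-null libraries lay above both control libraries for these genes, with S1 and S3 the nearest pair, as they did for 17% of genes tested. The log2 changes were 1.10 ± 0.33 for Oas1a and 1.12 ± 0.34 for Oas1g, and adjusted p was 0.827 for both by the quasi-likelihood test of edgeR (Benjamini-Hochberg). Without S4 they were 0.87 and 0.85, and without S2 0.60 and 0.64. Without the filter on low counts Oas1g passed (adjusted p = 0.0497 by the same test), as did 0.553% of genes.

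The other 4 members overlapped between the groups in these cells. Oas3 was at 29.4 and 56.9 CPM in S1 and S2, against 34.1 and 17.5 CPM in S3 and S4 (0.76 ± 0.44 on the log2 scale). Oasl1 was at 51.9 and 108.1 CPM, against 58.1 and 34.4 CPM (0.80 ± 0.43), and Oasl2 at 87.3 and 162.5 CPM, against 100.6 and 61.0 CPM (0.64 ± 0.38). For all 3 genes S3 lay above S1, so the positive values came from S2 above and S4 below. Oas2 differed least, at 15.7 and 24.4 CPM, against 16.6 and 17.6 CPM (0.23 ± 0.24). Without S2 the changes of Oas3, Oasl1 and Oasl2 were 0.18, 0.16 and 0.10, and that of Oas2 was -0.13. No gene was called in this class (0%; 0.156% by DESeq2). At an unadjusted p under 0.05 there were 2 of 6 members, against 5.45% of genes. The median log2 change was 0.78 over the 6 members and -0.00 over all 10847 genes tested.

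The makeup of this class differed between the libraries too. Cluster 1 held 8.47% and 3.02% of the monocyte- or macrophage-like cells of S1 and S2, against 14.9% and 35.7% of those of S3 and S4. Cluster 3 held 21.1% and 37.3%, against 19.1% and 9.14%, and cluster 6 held 16.1% and 32.7%, against 18.0% and 2.92%. S2 and S4 were the extremes, as they were for Oas1a, Oas1g, Oas3, Oasl1 and Oasl2 but not for Oas2. The marker lists had the same extremes: monocyte markers, 12 of 12 with a UMI, summed to 2349 and 4865 CPM in the Adar1-null libraries, against 2333 and 2117 CPM in the control libraries of this class, and macrophage markers to 20825 and 16836 CPM, against 22774 and 44415 CPM. The erythroid cell markers summed to 778.5 CPM in S4 and to at most 2.94 CPM in the others.

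Values within single clusters set aside the differing shares of the clusters, but differences in makeup inside a cluster were not tested. In cluster 6, Oas3 was at 39.6 and 59.6 CPM in S1 and S2, against 28.1 and 11.4 CPM in S3 and S4. Oas1a, given above, had the same order. There 5 of 6 members lay above both control libraries in both Adar1-null libraries, against 17.3% of genes, the exception being Oasl2. The 5 were Oas1a, Oas1g, Oas2, Oas3 and Oasl1, the last by a margin too narrow to read, at 45.78 CPM in S1 against 45.73 CPM in S4. The log2 changes were 0.97 ± 0.24 for Oas1a and 1.14 ± 0.33 for Oas3, with adjusted p of 0.479 and 0.671 by the quasi-likelihood test of edgeR (Benjamini-Hochberg). At an unadjusted p under 0.05 there were 5 of 6 members, against 5.74% of genes, and 0.0132% of genes were called (0.0148% by DESeq2). S4 had 56 cells in this cluster. Without S1, Oas1a, Oas3, Oasl1 and Oasl2 passed the adjusted threshold, along with 1.72% of genes, and without S2 or S4 no member did. Without the filter on low counts Oas1a, Oas3 and Oasl1 passed, with 0.531% of genes.

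Clusters 3, 4 and 5 gave similar signs, with 0 members called in each. Oas1g in cluster 3 was at 20.7 and 37.5 CPM in S1 and S2, against 11.2 and 10.5 CPM in S3 and S4, a log2 change of 1.44 ± 0.36. In cluster 5 it was at 14.5 and 19.7 CPM, against 7.86 and 6.03 CPM, a change of 1.23 ± 0.32. In both clusters S1 also lay clearly above S3. Members above both control libraries in both Adar1-null libraries were 4 of 6 in cluster 3 (16.8% of genes), 2 of 6 in cluster 4 (16.4%) and 4 of 6 in cluster 5 (15.6%). Those at an unadjusted p under 0.05 were 3, 2 and 3 of 6, against 4.82%, 4.14% and 3.34% of genes, and 0.0557%, 0% and 0% of genes were called (0.0739%, 0.0432% and 0.0139% by DESeq2). Oasl1 counted in cluster 3 by a margin too narrow to read, at 44.67 CPM in S1 against 44.65 CPM in S3. Without S3, 5 members passed in cluster 3 (all but Oas2), where 5.44% of genes then did, along with Oas1a and Oasl1 in cluster 4 (1.56% of genes) and Oasl1 in cluster 5 (1.83%). Without S1, Oas1a passed in cluster 4 (0.666%). Without the filter on low counts Oas1a, Oas1g, Oasl1 and Oasl2 passed in cluster 3 (0.539% of genes) and Oasl1 in cluster 5 (0.32%).

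**Figure D4:**
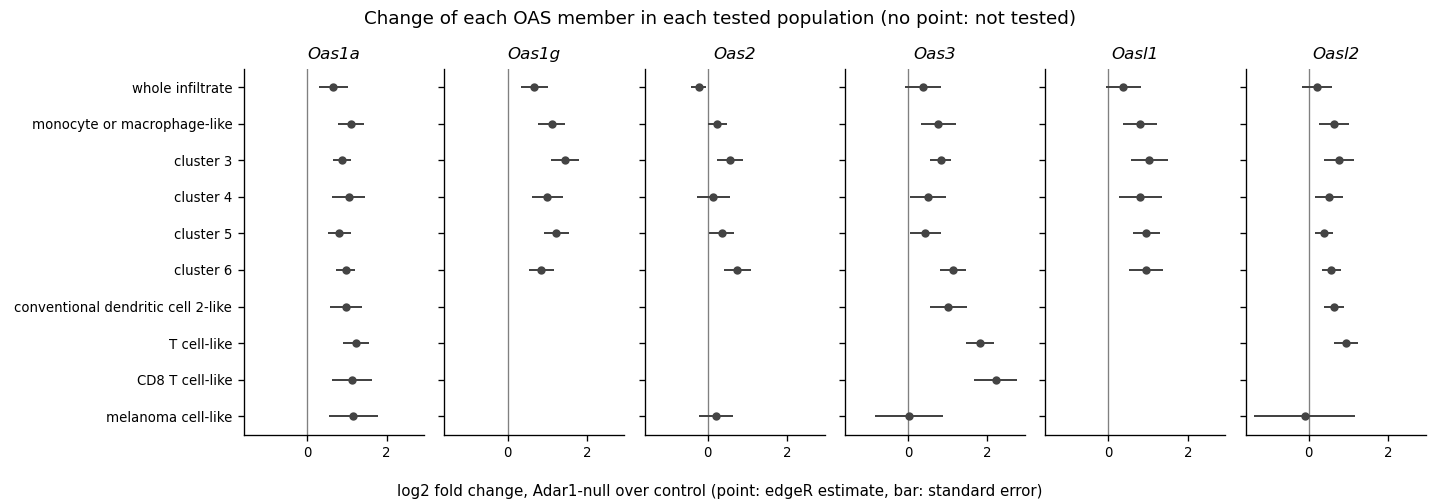
Log2 change of Adar1-null over control (points) with its standard error (bars) for the 6 OAS members in 10 populations, from edgeR. Oas1a lies above 0 in every population shown, and no member passed the adjusted threshold in any of them.

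In T cell-like cells Oas3 had the largest log2 change of the 3 members that passed the filter. It was at 9.44 and 13.2 CPM in S1 and S2, against 3.71 and 2.54 CPM in S3 and S4, from 31, 53, 11 and 8 UMIs. Oas1a was at 8.53 and 11.95 CPM, against 4.39 and 4.12 CPM, and Oasl2 at 14.6 and 15.2 CPM, against 10.1 and 5.07 CPM. In all 3 both Adar1-null libraries lay above both control libraries, as did 24.2% of genes tested. The log2 changes were 1.82 ± 0.36 for Oas3, 1.23 ± 0.33 for Oas1a and 0.93 ± 0.30 for Oasl2. None passed, at adjusted p of 0.0891, 0.300 and 0.423 by the quasi-likelihood test of edgeR (Benjamini-Hochberg), while 0.0424% of genes did. Their unadjusted p by the same test were 0.000211, 0.0027 and 0.00914, and 7.15% of genes lay under 0.05. Oas3 had under 10 UMIs in S4 and so passed the filter on low counts through the Adar1-null libraries. Nothing is therefore read from its separation of the groups or its unadjusted p. DESeq2 gave no adjusted p for these members and called 0.151% of genes. Without the filter on low counts 3 members passed, Oas3 (adjusted p = 0.000314 by the same edgeR test), Oasl1 (0.0281) and Oas1a (0.0453), where 1.17% of genes did. Without S4 the change of Oas3 was 1.57.

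Only those 3 members passed the filter on low counts in T cell-like cells. The other 3 had few UMIs: Oas2 had 11 and 9 in S1 and S2, against 1 and 3 in S3 and S4, Oasl1 10 and 31, against 6 and 2, and Oas1g 4 and 9, against 1 and 1. Regulatory T cell-like cells, whose member levels are higher, made up 90 of 368 and 67 of 390 T cell-like cells in the Adar1-null libraries and 44 of 285 and 35 of 283 in the control libraries. CD8 T cell-like cells alone give the comparison without them, but their own makeup differed too. Cluster 14, led by Gzmf and Gzmd, held 18 of 278 and 7 of 323 of these cells in S1 and S2. In S3 and S4 it held 37 of 241 and 86 of 248, and what this does to the members was not tested. Across CD8 T cell-like cells Oas3 was at 5.47 and 10.3 CPM in S1 and S2, against 2.35 and 1.06 CPM in S3 and S4. Oas3 had 14 and 35 UMIs there, against 6 and 3. Its log2 change was 2.205 ± 0.53, with an unadjusted p of 0.00149 and an adjusted p of 0.382 by the quasi-likelihood test of edgeR (Benjamini-Hochberg). Without S4 it was 1.74 and without S2 1.63, and without the filter on low counts it passed (adjusted p = 0.00485 by the same test) with 0.671% of genes.

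Oas1a in CD8 T cell-like cells was at 3.91 and 6.77 CPM in the Adar1-null libraries, against 2.75 and 2.12 CPM in the control libraries (log2 change 1.13 ± 0.50). Oas3 and Oas1a had at least 10 UMIs in the Adar1-null libraries alone and so passed the filter through that group. Nothing is therefore read from their separation of the groups (21.6% of genes) or from their unadjusted p under 0.05 (6.34% of genes), and 0 passed the adjusted threshold (0.0445%; 0.0746% by DESeq2). Oas3 was detected in 4.68% and 9.29% of these cells in S1 and S2, against 2.07% and 1.21% in S3 and S4, and after thinning in 2.52% and 4.64%, against 1.25% and 0.81%. In melanoma-like cells, at a median depth of 33311.5 UMIs in their larger cluster against 8667 UMIs in the larger CD8 cluster, Oas3 was detected in 1.11% and 2.77% of cells, against 3.76% and 0.625%. The control values of CD8 T cell-like cells lay within that range. Macrophage markers in CD8 T cell-like cells were at 439 and 729 CPM in S1 and S2, against 634 and 581 CPM in S3 and S4. These levels alone do not give the free Oas3 RNA, because Oas3 relative to the markers varied by library in monocyte- or macrophage-like cells. The part of free RNA in the difference between the groups was not tested.

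Regulatory T cell-like cells were too few for a test between the groups. Oas1a was at 24.9 and 40.3 CPM there in S1 and S2, against 14.5 and 21.8 CPM in S3 and S4, and Oas3 at 23.5 and 29.0 CPM, against 12.1 and 15.6 CPM. These values rest on 18 and 25 UMIs of Oas1a, against 6 and 7, and on 17 and 18 UMIs of Oas3, against 5 and 5. For Oasl2 the groups overlapped, at 51.1 and 83.7 CPM, against 65.2 and 28.0 CPM. Oasl1 had 4 and 23 UMIs in the Adar1-null libraries and 2 and 0 in the control libraries, so most of its UMIs came from S2.

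In cDC2-like cells Oas1a was at 57.1 and 118.5 CPM in S1 and S2, against 55.2 and 27.3 CPM in S3 and S4, and Oasl2 at 134.0 and 194.8 CPM, against 92.5 and 111.8 CPM. Oas3 was at 29.8 and 54.2 CPM, against 27.6 and 9.94 CPM. These 3 members passed the filter, and for each the Adar1-null libraries lay above the control libraries, as for 21.1% of genes. S1 and S3 almost met for Oas1a and Oas3. With 4 UMIs in S4, Oas3 passed the filter through the Adar1-null libraries, so nothing is read from its separation of the groups. The log2 changes were 0.99 ± 0.40, 0.64 ± 0.26 and 1.01 ± 0.47, and adjusted p was 0.960, 0.960 and 0.985 by the quasi-likelihood test of edgeR (Benjamini-Hochberg). No gene was called (0%; 0.00817% by DESeq2), and 2 of the 3 members had an unadjusted p under 0.05, against 4.91% of genes. Without S3, Oas1a passed (adjusted p = 0.0159 by the same test) with 1.96% of genes, and without S4 its change was 0.67. Oasl1, which did not pass the filter, was at 19.9 and 60.2 CPM, against 9.74 and 12.4 CPM, from 8 and 30 UMIs, against 6 and 5.

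In melanoma-like cells, which carry the genotype, none of the 4 members that passed the filter set the groups apart. Oas1a was at 1.15 and 3.18 CPM in S1 and S2, against 1.55 and 0.434 CPM in S3 and S4 (1.17 ± 0.61 on the log2 scale), and Oas3 at 0.384 and 1.27 CPM, against 1.55 and 0.174 CPM (0.02 ± 0.86). Oasl2 was at 1.92 and 6.04 CPM, against 7.31 and 1.48 CPM (-0.11 ± 1.28). Libraries of both groups overlapped for each. Oas1g, which did not pass the filter, lay above both control libraries by a narrow margin, at 0.575 and 1.38 CPM, against 0.553 and 0.434 CPM, from 6 and 13 UMIs, against 5 and 5. Of the 4 members that passed the filter, 0 were called by edgeR's quasi-likelihood test or DESeq2, 0 had an unadjusted p under 0.05 and 0 lay above both control libraries, against 0.246% (0.0477% by DESeq2), 4.78% and 17.3% of genes. Standard errors of these 4 changes ran between 0.42 and 1.28.

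Whether the change differed between classes was tested as an interaction. For T cell-like less monocyte- or macrophage-like cells the difference in log2 change was 1.79 ± 0.77 for Oas2, 1.18 ± 0.51 for Oasl1 and 1.11 ± 0.43 for Oas3, and none passed by the quasi-likelihood test of edgeR (Benjamini-Hochberg) (adjusted p = 0.729, 0.722 and 0.684). These 3 had an unadjusted p under 0.05 by that test, against 6.05% of genes. Oas2 and Oasl1 did not pass the filter in T cell-like cells alone and had few UMIs there. They entered this fit through its other classes, so nothing is read from that count. For Oas1a the difference was 0.15 ± 0.38. In cDC2-like cells Oasl1 alone had an unadjusted p under 0.05, at 1.10 ± 0.47 (adjusted p = 0.987 by the same test; 4.98% of genes), and in melanoma-like cells 0 members did (5.29% of genes). Oasl1 did not pass the filter in cDC2-like cells alone, where it had 8 and 30 UMIs in S1 and S2, against 6 and 5 in S3 and S4. Called genes made up 0.0159%, 0.0159% and 0% of those tested for T cell-like, cDC2-like and melanoma-like cells.

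Among other genes of the 2-5A pathway, Akap7, which in the mouse encodes a phosphodiesterase that can degrade 2-5A, was at 9.92 and 11.4 CPM in monocyte- or macrophage-like cells of S1 and S2, against 15.5 and 22.4 CPM in those of S3 and S4. It lay lower in both Adar1-null libraries than in both control libraries, as did 19.5% of genes, at a log2 change of -0.83 ± 0.24 (adjusted p = 0.827 by the quasi-likelihood test of edgeR (Benjamini-Hochberg)). Pde12, a 2-5A phosphodiesterase in human cells, was at a change of 0.27, and Abce1, an ATP-binding protein of ribosome recycling, at 0.05. None of these was called. Of the other Oas1 paralogs measured, Oas1c had more than 1 UMI. It was at 2.13 and 2.32 CPM in the whole infiltrate of S1 and S2, against 1.35 and 1.90 CPM in that of S3 and S4, and in T cell-like cells at 6.39 and 5.23 CPM, against 4.39 and 3.17 CPM (log2 change 0.57 ± 0.39). Oas1e, Oas1f and Oas1h had 1 UMI each and Oas1d none in all cells, and Oas1b was not analysed here.

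Most other interferon genes had the same sign as the members in monocyte- or macrophage-like cells. The lists were chosen with earlier results of these data known, so their counts are descriptions. Of 30 core antiviral interferon-stimulated genes, 28 were tested in monocyte- or macrophage-like cells. All 28 had a positive log2 change, against 49.6% of all genes. Both Adar1-null libraries lay above both control libraries for 10 of the 28, as for 17% of all genes. None was called, and 2 had an unadjusted p under 0.05, against 5.45% of all genes. The genes with the smallest unadjusted p were Isg20 (1.56 ± 0.44), Mx1 (1.16 ± 0.45) and Xaf1 (0.99 ± 0.41). Of 8 double-stranded RNA sensors 7 were positive, led by Zbp1 (1.05 ± 0.52), Eif2ak2, which encodes the kinase PKR (0.41 ± 0.19), and Ddx58, which encodes RIG-I (0.38 ± 0.22). Of 13 genes of interferon receptors and ISGF3 signalling 11 were positive, among them Irf7 (1.18 ± 0.43), Usp18 (1.08 ± 0.39) and Stat2 (0.77 ± 0.26). The 2 negative ones were Ifnar2 (-0.07) and Jak1 (-0.20), for which both Adar1-null libraries lay below both control libraries. In melanoma-like cells the lists were more mixed, with 17 of 25 core genes and 4 of 8 sensors positive, against 48.9% of all genes. Of the interferon ligands, 2 had enough UMIs for a test in monocyte- or macrophage-like cells, Ifng (1.40 ± 0.49) and Ifnb1 (-0.45 ± 0.49). Ifng was among the leading genes of the larger CD8 cluster. The part of free RNA or doublets in its UMIs in monocyte- or macrophage-like cells was not tested. For none of these genes was adjusted p under 0.05 by the quasi-likelihood test of edgeR (Benjamini-Hochberg), in any population.

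The genes whose levels followed the members most closely were other interferon-stimulated genes for some members and macrophage genes for others. Likeness was the Pearson correlation of log2(CPM + 1) over 20 sums of a class in a library with at least 50 cells, ranked over 7533 genes. These points share libraries, so the values are descriptions with no p. For the sum of the 6 members the closest were Rtp4 (0.986), Isg15 (0.982) and Irf7 (0.981), followed by Dhx58, Bst2, Ifit3, Gbp2, Fos, Ifi204 and Slamf8 (0.979 to 0.962). Oas1a was closest to Irf7 (0.982), Isg15 (0.980) and Phf11d (0.978), and Oas3 to Rtp4 (0.961), Irf7 (0.960) and Usp18 (0.958). Oas2 was closest to Tgm2 (0.958), Rab7b (0.9496) and Sdc3 (0.946), and Oas1g to Znfx1 (0.969), Adap2 (0.966) and Cd180 (0.964). Oasl1 was closest to Rab7b (0.953), Cd274 (0.9502) and Aif1 (0.945), and Oasl2 to Kctd12 (0.966) and Slamf8 (0.962). Among themselves the members correlated at 0.787 to 0.952.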

How the data were processed

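What the authors deposited is 1 matrix for all libraries, holding raw UMI counts in whole numbers. The submitters' processing notes name Cell Ranger, Seurat 2.2.0 and mm10, while aligner settings, annotation and earlier filters are not given in the sources used. Barcode suffixes show the library and its group but not which sample it is. Cells with under 500 genes or over 10% mitochondrial UMIs were removed (161), then 118 doublets (score over 0.1). Cells were clustered with scanpy 1.11.5 and leidenalg 0.10.2 (2000 variable genes, 30 components, 20 neighbours, resolution 1.0) without 588 genes, among them the members. Clusters were named from marker lists.

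Sums of UMI counts per library and class of at least 50 cells in each library were tested with edgeR 4.0.16 in R 4.3.3 (TMM, filterByExpr, robust quasi-likelihood fit, Benjamini-Hochberg over all genes, threshold 0.05). DESeq2 1.42.0 was an alternative, and its shares are of all genes with a UMI in the population, also those without an adjusted p. The fits were tested on simulated data. CPM is UMIs scaled to the total of the library or class. Free RNA was not corrected. Members and gene lists were chosen with earlier results of these data known. Named are the members, listed pathway genes, the 3 genes per list with the smallest unadjusted p in monocyte- or macrophage-like cells and the genes most alike in pattern. One further gene of the pathway is not reported here.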

Additional observations from a re-analysis of the deposited data

How the results depend on the processing

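Among the members' changes and their differences between classes, signs turned in 26 values with a library left out and in 2 under other settings. Among the members' Adar1-null over control changes, 174 of 192 values with a library left out and 210 of 223 under other settings were positive. These are refits of the same libraries in overlapping populations and not separate results. Of all genes tested in monocyte- or macrophage-like cells with all libraries, 49.6% were positive. Calls, which were 0 with all libraries and the standard filter, came with the filter removed (1 in monocyte- or macrophage-like cells, 3 in T cell-like cells and 9 over CD8 T cell-like cells and clusters 3, 5 and 6, where 0.32% to 1.17% of genes were called) and with a library left out. Fits with a library left out keep a single library in a group, so their calls are not counted here. In the whole infiltrate, melanoma-like cells and the differences between classes the count was 0 under every setting. Of the 2 members called lower in cDC2-like cells, 1 remained with RLE normalization or in the fit of 7 classes, 0 without the library block, and 1 to 2 with a library left out; the cause was not tested. Lower calls in T cell-like and melanoma-like cells were 6 of 6 under every setting that tested all 6.

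Signs turned with a library left out for these log2 changes. In the whole infiltrate Oas3 ran between -0.14 and 0.85, Oasl1 between -0.23 and 0.80 and Oasl2 between -0.26 and 0.55. Oas2 ran between -0.13 and 0.53 in monocyte- or macrophage-like cells and between -0.25 and 0.60 in cluster 4, and Oas3 between -0.25 and 1.11 in cluster 4 and between -0.20 and 1.03 in cluster 5. In melanoma-like cells Oas2 ran between -0.18 and 0.64, Oas3 between -1.05 and 2.15 and Oasl2 between -1.14 and 1.40, and Oas3 was also at -0.0505 by DESeq2 and at -0.19 with cells gated singly by their markers. Less the change in monocyte- or macrophage-like cells, Oas1a ran between -0.0526 and 0.37 in T cell-like, between -0.42 and 0.92 in melanoma-like and between -0.24 and 0.33 in cDC2-like cells. In melanoma-like cells that difference ran between -0.43 and 0.52 for Oas2, -1.24 and 0.84 for Oas3, -0.58 and 0.0061 for Oasl1 and -1.21 and 0.41 for Oasl2, and in cDC2-like cells between -0.45 and 0.49 for Oasl2.

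Gating cells singly was not run for cDC2-like and CD8 T cell-like cells or for clusters. No paired analysis was possible because the library names in the barcodes carry no replicate numbers. Over 4 libraries there were 448 member UMIs in T cell-like and 393 in melanoma-like cells, and each group has 2 libraries. A fit with a library left out therefore leaves a single library in a group, and its calls take no spread from that group. A member can then also pass the filter on low counts through that library alone.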

Other observations

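Clusters 11 and 17, which no marker list named, also held members. In cluster 11, led by Lipg, Cd300e and Slamf9, Oasl1 was at 39.6 and 87.9 CPM in S1 and S2 (Adar1-null), against 47.5 and 17.0 CPM in S3 and S4 (control). Oas1a was at 42.2 and 65.7 CPM there, against 40.7 and 25.6 CPM. In cluster 17, led by Ear2, Retnla and Lyz1, Oas2 was at 20.6 and 34.2 CPM, against 29.0 and 17.9 CPM, and Oasl2 at 52.9 and 94.0 CPM, against 69.0 and 53.8 CPM. S2 was the highest library for each of these values. The control libraries of cluster 11 held 56 and 12 cells, so its S4 values rest on few UMIs.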
